A study of Homo sapiens with 8 samples.

Results

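The replication-dependent histone genes supply the bulk of the histone protein that packages newly copied DNA. Probes were taken when their symbol in the probe table of the series began with HIST1H, HIST2H, HIST3H or HIST4H, or was the current symbol of such a gene. This gave 49 probes for 47 genes, of 17551 genes with a symbol on the chip, and 28 of the 49 probes were bright enough to be tested. The tested probes include that of H2AC10P, a pseudogene of the H2A class by its symbol. The genes were measured in HCT116, an established line of human colorectal cancer cells. The cells had been transfected with a synthetic mimic of miR-8073 (3 arrays), with a microRNA-negative control sequence (3 arrays) or with a blank, here called mock (2 arrays). All groups were this same line. Each array held the Cy5-labelled RNA of 1 sample. The sources differ on the time after transfection, so none is given here. Whether the arrays of a group came from separate cultures is not in the labels. The p-values therefore cover the spread between these arrays alone, and that spread may be technical.

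Most mRNAs end in a poly(A) tail, whereas replication-dependent histone mRNAs end in a short stem-loop that is held by the stem-loop binding protein SLBP. They are made mainly in S phase, when the transcription co-activator NPAT is active at the histone gene clusters, and they are degraded when DNA synthesis stops. The nucleosome core is built of H2A, H2B, H3 and H4, and H1 sits on the linker DNA between nucleosomes. The kit named in the labels starts cDNA synthesis from a poly(A) tail, so a transcript that ends in the stem-loop is not its usual template. How far this set the readings was not tested.

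The promoters of the H4 genes on the chip are shown first, because the H4 probes gave the clearest difference between the groups. Promoters were matched by symbol for 42 of the 47 genes in the RefSeq sequences of build GRCh38.p14. Each line gives the 130 bases that end just before the annotated start of the gene, 5′ to 3′ on the strand of the gene. Capitals mark 4 motifs or their reverse complements. They are GGTCCG, the core of the H4 promoter element called site II that the factor HINFP binds, and the TATA box letters TATAAA. The others are CCAAT, whose reverse complement is ATTGG, and the octamer ATTTGCAT known from H2B promoters. The windows lie at chr6:27139152-27139281 (plus strand) for H4C9, chr6:26027284-26027413 (minus strand) for H4C2, chr6:26246997-26247126 (minus strand) for H4C7, chr6:26204480-26204609 (plus strand) for H4C5, chr6:26285535-26285664 (minus strand) for H4C8 and chr6:27873535-27873664 (minus strand) for H4C13. The window of H2AC19, the H2A gene whose probe fell, lies at chr1:149850931-149851060 (plus strand).
H4C9: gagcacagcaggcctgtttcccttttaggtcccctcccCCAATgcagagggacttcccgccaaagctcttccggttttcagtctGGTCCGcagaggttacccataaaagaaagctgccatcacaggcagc
H4C2: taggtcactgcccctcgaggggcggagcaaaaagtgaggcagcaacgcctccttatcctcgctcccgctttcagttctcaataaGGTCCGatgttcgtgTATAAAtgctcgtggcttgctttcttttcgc
H4C7: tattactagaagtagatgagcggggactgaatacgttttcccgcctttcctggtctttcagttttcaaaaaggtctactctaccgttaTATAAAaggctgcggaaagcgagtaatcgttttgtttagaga
H4C5: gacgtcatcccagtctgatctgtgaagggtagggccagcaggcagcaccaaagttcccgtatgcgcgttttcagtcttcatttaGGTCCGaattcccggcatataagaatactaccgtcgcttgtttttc
H4C8: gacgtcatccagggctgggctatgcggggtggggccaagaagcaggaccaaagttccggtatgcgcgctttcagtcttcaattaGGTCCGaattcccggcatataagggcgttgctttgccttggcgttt
H4C13: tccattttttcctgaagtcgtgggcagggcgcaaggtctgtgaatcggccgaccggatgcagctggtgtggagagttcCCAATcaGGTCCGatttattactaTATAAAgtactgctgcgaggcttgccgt
H2AC19: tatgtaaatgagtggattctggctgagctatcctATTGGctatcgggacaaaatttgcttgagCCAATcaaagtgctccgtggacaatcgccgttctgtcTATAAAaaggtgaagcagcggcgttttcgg
The letters GGTCCG occurred in 5 of the 6 H4 promoters (83.3%), starting 46 bases before the annotated start in H4C9, H4C2, H4C5 and H4C8 and 45 bases before it in H4C13, and they were not in the window of H4C7. Searched on both strands over the 250 bases before the start, they occurred in 9.3% of 27305 promoters, taking 1 promoter for each gene, and in 3 of the 36 promoters of the other histone classes. The octamer ATTTGCAT occurred in 9 of 12 H2A promoters and 7 of 11 H2B promoters, against 1.7% of all promoters, and in none of the H1, H3 or H4 promoters. TATAAA occurred in 28 of the 42 histone promoters (66.7%), against 11.1% of all promoters, and CCAAT in 38 of them (90.5%), against 33.0%. None of the 4 motifs contains another, and a match is a description of the letters, not a site in use. Whether the windows of neighbouring genes overlap was not checked, so the same match may be counted for more than 1 gene.

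The mature sequence that the mimic is named for is hsa-miR-8073, at chr13:110340968-110340989 (plus strand) in the same build, with its seed (bases 2 to 8) in capitals.
hsa-miR-8073: aCCUGGCAgcagggagcgucgu

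Of the 49 probes, 6 were for H1, 14 for H2A, 14 for H2B, 9 for H3 and 6 for H4, and 41 belonged to the HIST1 cluster, 5 to HIST2 and 3 to HIST3. A probe was tested when it was brighter than 95% of the blank spots on at least 2 of the 8 arrays, and 1 of the H1, 9 of the H2A, 11 of the H2B, 4 of the H3 and 3 of the H4 probes did so. Of the 28 tested probes, 26 were above that level on all 8 arrays, and the probes for H2AC21 and H2BC18 on 6 each. The other 21 probes gave signals of 1.02 to 7.22 scanner units. Of these, 20 were above the level on no array and the H4C5 probe on 1. They included all H1 probes but that of H1-2, and among them were the probes of H1-6, H2AC1 and H2BC1, which are known as testis forms. The 28 probes are therefore not a sample of all members. Signals are background-corrected, normalized scanner units. Log2 changes were taken on the signal plus 50, which understates the change of a dim probe. Readings of different probes are not set against each other, since brightness depends on the probe.

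The arrays were alike in quality. Over all probes, 11558 to 12779 (47.3% to 52.3%) were above the blank level on an array, and log2 values of arrays correlated at 0.993 to 0.996 within groups and 0.983 to 0.993 between groups. Of the markers of colon epithelium, 5 of 9 were above the blank level on all arrays, with a summed signal of 7697 to 9538 in mimic, 6805 to 8403 in negative control and 7966 to 8083 in mock samples. None of 5 leukocyte markers, 1 of 6 fibroblast markers and 1 of 4 endothelial markers were above it on all arrays.

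The 3 H4 probes that could be tested were lower with the mimic than with either control. H4C9 gave 186, 251 and 179.9 units in mimic samples, against 449.6, 379 and 456 units in negative control samples and 404.5 and 459.6 units in mock samples. Every mimic array was below every control array, and the control groups overlapped each other. The mean signal of H4C9 was 206 ± 39.4 units with the mimic and 428 ± 42.6 units with the negative control (SD, n = 3 each), a 2.08-fold lower level. Its log2 change was -0.91 (SE 0.12, adjusted p = 0.00348, limma) against negative control and -0.92 (SE 0.13, adjusted p = 0.0138) against mock. Between negative control and mock it was -0.01 (adjusted p = 0.97).

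H4C2 gave 134.5, 190.0 and 115 units in mimic samples, against 247, 242 and 278 units in negative control samples and 294 and 310.1 units in mock samples. The mimic arrays lay below all control arrays, with the second mimic array the nearest to them, and both mock arrays were above the negative control arrays. The log2 change of H4C2 was -0.65 (SE 0.13, adjusted p = 0.0159) against negative control and -0.86 (SE 0.14, adjusted p = 0.0231) against mock. That of negative control against mock, -0.21 (SE 0.14), did not pass (adjusted p = 0.47).

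H4C7, which encodes an H4-like protein that differs from the common H4, gave 20.4, 24.1 and 16.4 units in mimic samples, against 33.1, 55.2 and 44.8 units in negative control samples and 49.2 and 43.7 units in mock samples. No mimic array reached any control array. The log2 change of H4C7 was -0.42 (SE 0.09, adjusted p = 0.0187) against negative control and -0.46 (SE 0.1, adjusted p = 0.0499) against mock, and -0.04 between negative control and mock (adjusted p = 0.868). Both comparisons of the mimic share its 3 arrays, so they are not separate evidence. The other H4 genes encode one protein and have similar coding sequences. The probe sequences were not used here, so how far each H4 probe reads only its own gene was not tested.

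**Figure D1:**
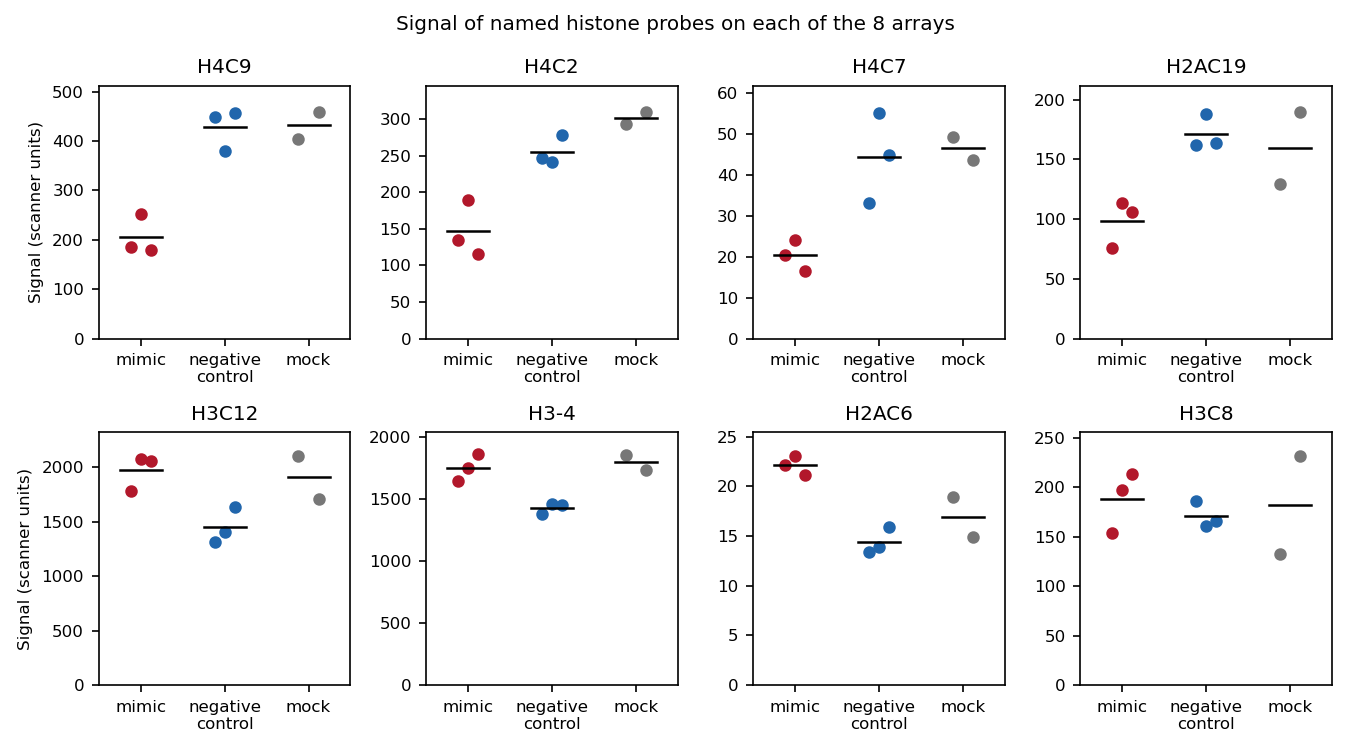
Normalized signal (vertical axes, scanner units, each from 0) of the probes for 8 histone genes on each of the 3 mimic, 3 negative control and 2 mock arrays. Points are arrays and horizontal lines are group means. In the 4 upper panels the mimic arrays lie below all control arrays, and in H3C12 and H3-4 the mimic arrays lie above the negative control arrays but overlap the mock arrays.

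The calls of the H4 genes differed in how much they rested on single arrays. H4C9 against negative control kept its call whichever array was left out (adjusted p = 0.00305 to 0.0179), and against mock it lost the call only without mock array 2 (adjusted p = 0.0828). Against negative control, H4C2 lost its call without mimic array 1 (adjusted p = 0.0536), negative control array 1 (adjusted p = 0.0506) or negative control array 3 (adjusted p = 0.0569), and H4C7 without mimic array 1 (adjusted p = 0.0544), mimic array 3 (adjusted p = 0.0579) or negative control array 3 (adjusted p = 0.0612). Against mock, H4C2 lost its call without either mock array or without mimic array 1 or 3 (adjusted p = 0.0505 to 0.12), and H4C7 without any one of the mimic or mock arrays or negative control array 3 (adjusted p = 0.0759 to 0.159). No H4 call changed direction under any of the 19 alternative settings.

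Over all tested histone probes, the calls against negative control ran in both directions, while those against mock were all lower. Against negative control, 4 of 28 probes fell (H4C9, H4C2, H4C7 and H2AC19) and 3 rose (H3C12, H3-4 and H2AC6), where 7.81% of all 12914 tested probes fell and 7.84% rose. The median log2 change was -0.0085 over the histone probes and 0.0041 over all tested probes, with 15 histone probes below 0 and 13 above. At an unadjusted p below 0.05 there were 10 histone probes and 4055 probes in all. The 10 include H2BC18, which was bright enough to test only through the control groups. Against mock, 3 histone probes fell (H4C9, H4C2 and H4C7) and 0 rose, where 2.57% of all tested probes fell and 1.22% rose. In that comparison 7 histone probes and 2388 of all 12914 tested probes had an unadjusted p below 0.05. The median there was -0.014, against 0.0062 over all tested probes. Leaving out the 3 H4 probes, the median over the other 25 was 0.0075 against negative control and -0.0011 against mock.

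By class, all 3 tested H4 probes fell in both comparisons, with median log2 changes of -0.65 against negative control and -0.86 against mock. Of the 9 H2A probes, 1 fell and 1 rose against negative control (median 0.04) and 0 passed the test against mock (median -0.06). Of the 11 H2B probes, 0 passed in any of the 3 comparisons by limma. Their medians were -0.04 against negative control and -0.0011 against mock. Against negative control, the H2BC18 probe alone had an unadjusted p below 0.05, where 4055 of all 12914 tested probes did. That probe was above the blank level on 1 of the 3 mimic arrays and on every control array. It was therefore tested only through the groups in which it was brighter, and it is not read as a change. Of the 4 H3 probes, 2 rose against negative control (median 0.19) and 0 passed against mock (median 0.03). The only tested H1 probe, for the linker histone H1-2, had log2 changes of 0.23 (adjusted p = 0.187) against negative control and 0.26 (adjusted p = 0.311) against mock. These counts are of probes chosen with earlier results known, and no difference between classes was tested.

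**Figure D2:**
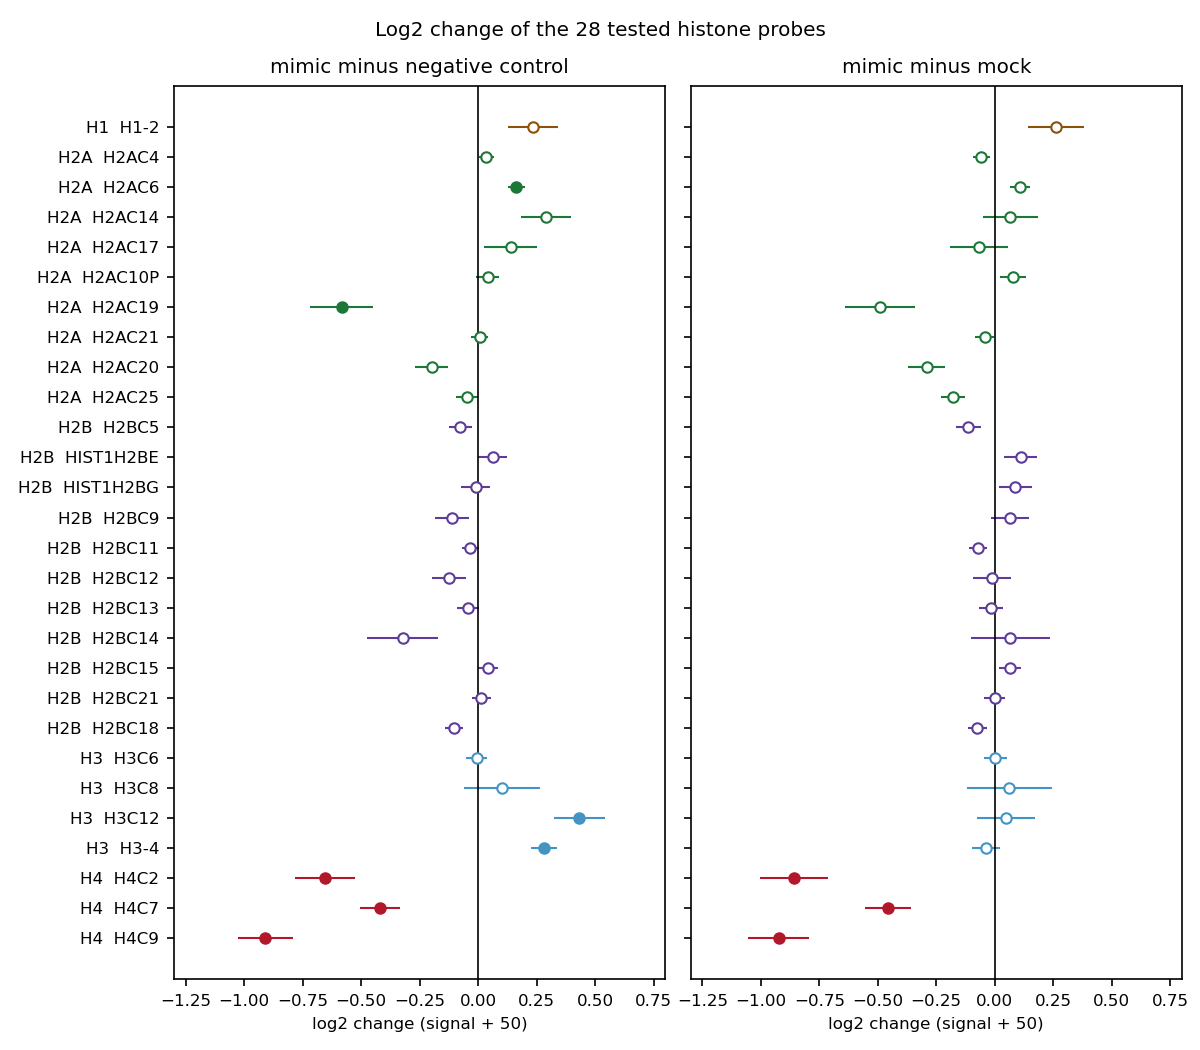
Log2 change on the scale of signal plus 50 (horizontal axes) of the 28 tested histone probes, grouped from top to bottom as H1, H2A, H2B, H3 and H4, for mimic minus negative control (left) and mimic minus mock (right). Bars are standard errors of the limma fit and filled points passed the threshold of 0.05 after adjustment over all tested probes. The 3 H4 probes are filled on both sides, while H2AC19, H2AC6, H3C12 and H3-4 are filled only on the left.

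Every mimic array was below all 5 control arrays for the probes of H4C9, H4C2, H4C7, H2AC19 and H2AC20, each above the blank level on all 8 arrays, where 8.46% of all tested probes showed this. The H2BC18 probe also showed it, but it was above the blank level on 1 of the 3 mimic arrays and on all 5 control arrays. It was therefore tested only because of the groups in which it was brighter, and it is not counted with the others. Every mimic array was above all 5 control arrays for the probes of H2AC6 and H1-2, where 7.8% of all tested probes did.

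H2AC19 was the H2A gene that fell. It is a near-identical copy of H2AC18, which the probe may read as well. Its probe gave 75.9, 113 and 106 units in mimic samples, against 162, 188 and 164 units in negative control samples and 129 and 190.1 units in mock samples. The mimic arrays were below all control arrays, and mock array 1 was nearest to them. The log2 change was -0.58 (SE 0.13, adjusted p = 0.0272) against negative control, where the mean signal was 1.74-fold lower. Against mock it was -0.49 (SE 0.15) and did not pass (adjusted p = 0.127). The call was lost without mimic array 1 or 3 or any one of the negative control arrays (adjusted p = 0.0535 to 0.0808). H2AC20, a neighbouring H2A gene of the HIST2 cluster, gave 33.3, 39.3 and 24.5 units in mimic samples, against 43.1, 46.8 and 43.0 units in negative control samples and 46.2 and 55.1 units in mock samples, and it passed neither test (adjusted p = 0.0996 and 0.0947).

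The H3 probes that rose did so against negative control and not against mock. H3C12 gave 1776, 2074 and 2056 units in mimic samples, against 1310.0, 1399.5 and 1637 units in negative control samples and 2105 and 1710.2 units in mock samples. The mimic arrays were above the negative control arrays and overlapped the mock arrays. Its log2 change was 0.43 (SE 0.11, adjusted p = 0.0381) against negative control and 0.05 (adjusted p = 0.895) against mock, and that of negative control against mock was -0.38 (adjusted p = 0.135). The call was lost without mimic array 2 or 3 or negative control array 1 or 2 (adjusted p = 0.0996 to 0.119).

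H3-4, an H3 gene known for its use in testis, gave 1644, 1745 and 1858 units in mimic samples, against 1375, 1457 and 1453 units in negative control samples and 1855 and 1734 units in mock samples. Its level was lowest in the 3 negative control arrays, and the mimic and mock arrays overlapped. The probe sequences were not used here, so whether the H3-4 and H3C12 probes each read only their own gene was not tested. The log2 change of H3-4 was 0.28 (SE 0.05, adjusted p = 0.0147) against negative control and -0.04 (adjusted p = 0.827) against mock. The call was lost without negative control array 1 (adjusted p = 0.056). H3-4 was also the 1 histone probe of 28 that differed between the controls, with a log2 change of -0.32 (SE 0.06, adjusted p = 0.0372) for negative control against mock, where 2.22% of all tested probes were lower and 1.36% higher. By limma, 4 histone probes and 2739 of all 12914 tested probes had an unadjusted p below 0.05 there, and the median over the 28 was -0.03. That call was lost without mimic array 2, any one negative control array or either mock array (adjusted p = 0.0608 to 0.199).

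H2AC6 was a dim probe, with 22.1, 23.1 and 21.2 units in mimic samples, against 13.4, 13.9 and 15.9 units in negative control samples and 18.9 and 14.94 units in mock samples. Every mimic array was above every control array by a few units. The log2 change was 0.16 (SE 0.04, adjusted p = 0.0266) against negative control and 0.11 (adjusted p = 0.219) against mock. The call was lost without any one of the mimic or negative control arrays (adjusted p = 0.0521 to 0.0875). H3C8, among the 6 histone probes with the highest mean signal, gave 153, 197 and 213 units in mimic samples, against 186, 160.3 and 166 units in negative control samples and 132 and 231 units in mock samples. Its groups overlapped and its log2 changes of 0.10 against negative control and 0.06 against mock did not pass (adjusted p = 0.728 and 0.914).

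The histone probes did not vary as 1 group over the arrays. Across the 8 arrays, the median Pearson correlation over the 378 pairs of tested histone probes was 0.098, while the 3 pairs of H4 probes correlated at 0.857 to 0.964. These points share arrays and groups, and the values are a description. The 5 genes outside the family whose log2 values were most like the mean of the standardized histone probes over the 8 arrays, among 10237 genes, were C1QL2 (r = 0.964), ABCB9 (r = 0.956), KCNC2 (r = 0.945), GRIA1 (r = 0.938) and FRMD1 (r = 0.911). That mean did not follow the groups. It was -0.74 on mimic array 1 and -0.36 on negative control array 1, and 0.07 to 0.26 on the other arrays.

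Genes that make or process histone mRNA were read from a fixed list of 33, of which 28 could be tested. Against negative control 3 fell and 1 rose, with a median of -0.06, where 7.81% of all tested probes fell and 7.84% rose, so these counts were near the share over all probes. CDK2, the kinase that with cyclin E phosphorylates NPAT, fell (149 units with the mimic and 299 with the negative control, log2 change -0.83, adjusted p = 0.0289). CASP8AP2, also called FLASH, a component of the histone locus body, fell by 0.31 on the log2 scale (adjusted p = 0.0309), and UPF1, an RNA helicase that acts in histone mRNA decay, fell by 0.23 (adjusted p = 0.038). LSM1, of the ring that binds the 3′ end of histone mRNA during decay, rose (log2 change 0.30, adjusted p = 0.015). SLBP itself averaged 800.1 units with the mimic, 961 with the negative control and 921 with mock, and its change of -0.24 did not pass (adjusted p = 0.265). NPAT likewise did not pass (log2 change -0.14, adjusted p = 0.122), and LSM11, a part of the processing particle, was not bright enough to test.

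Against mock, 3 genes of that list fell and 0 rose, where 2.57% of all tested probes fell and 1.22% rose. CCNE2, a cyclin E, changed by -0.53 (adjusted p = 0.0192), CSTF2, a subunit shared with polyadenylation, by -0.46 (adjusted p = 0.0413), and HINFP by -0.29 (adjusted p = 0.0331). These 3 were named after their values were seen. HINFP averaged 7.56 units with the mimic, 12.6 with the negative control and 20.2 with mock, and against negative control its change of -0.12 did not pass (adjusted p = 0.128). The calls in this list rested on few arrays. In each comparison 0 to 3 genes passed when 1 array was left out. Single arrays whose loss ended a call were mimic arrays 1 and 2 and each negative control array for CDK2 (adjusted p up to 0.0919), mimic arrays 2 and 3 and negative control arrays 1 and 3 for CASP8AP2 (adjusted p up to 0.0886), negative control array 1 for LSM1 (adjusted p = 0.0506) and every array for UPF1 (adjusted p up to 0.107). Against mock they were mimic array 1 and both mock arrays for CCNE2 (adjusted p up to 0.0827), mimic arrays 2 and 3, negative control array 3 and both mock arrays for CSTF2 (adjusted p up to 0.14), and all but negative control array 1 for HINFP (adjusted p up to 0.115).

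Among 30 histone chaperones and enzymes that act on new histones, all tested, 6 fell and 3 rose against negative control (median 0.0069), and 5 fell and 0 rose against mock (median -0.02). Over all tested probes, 7.81% fell and 7.84% rose against negative control, and 2.57% fell and 1.22% rose against mock, so the number that rose was near the share over all probes. ASF1B, which hands H3 and H4 to the assembly factors, averaged 213 units with the mimic and 393 with the negative control (log2 change -0.76, adjusted p = 0.00363). CHAF1B (-0.67, adjusted p = 0.00625) and CHAF1A (-0.60, adjusted p = 0.00121), subunits of chromatin assembly factor 1, fell too, as did DNAJC9, a co-chaperone of H3 and H4 (-0.67, adjusted p = 0.00105), and MCM2, the helicase subunit that also binds H3 and H4 (-0.50, adjusted p = 0.012). The 3 that rose were RBBP4, a subunit of chromatin assembly factor 1 and other complexes that binds H3 and H4 (0.42, adjusted p = 0.0109), and the H2A-H2B chaperones NAP1L1 (0.40, adjusted p = 0.0419) and NAP1L4 (0.22, adjusted p = 0.0345).

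ASF1B, CHAF1A, CHAF1B, DNAJC9, MCM2 and RBBP4 kept their calls against negative control whichever array was left out. NAP1L1 lost its call without any one mimic array or negative control array 1 or 3 (adjusted p up to 0.114), and NAP1L4 without mimic array 2 or 3 or any one negative control array (adjusted p up to 0.106). Against mock, DNAJC9 (-0.73, adjusted p = 0.00372) was the 1 called chaperone among the 5 that kept its call whichever array was left out, and 1 to 3 of the list passed in those fits.

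Many replication-independent histone variants, though not CENPA, are made throughout the cell cycle, and mostly from polyadenylated mRNA. Of 13 tested, 1 fell and 3 rose against negative control (median -0.03), and 1 fell and 1 rose against mock (median 0.0062). The share over all tested probes was 7.81% lower and 7.84% higher against negative control and 2.57% lower and 1.22% higher against mock. At 13 genes the single calls are near it. The 3 that rose against negative control are above it, and no test of the list was made. CENPA, the H3 variant of the centromere, averaged 191 units with the mimic, 384 with the negative control and 286 with mock (log2 change -0.85, adjusted p = 0.000934, against negative control and -0.48, adjusted p = 0.0284, against mock). H3-3B, which encodes the H3.3 variant, averaged 424 units with the mimic, 287 with the negative control and 269 with mock (0.49, adjusted p = 0.00329, and 0.57, adjusted p = 0.00796). H3-3A, the second gene for H3.3, rose against negative control (0.59, adjusted p = 0.0221), and so did the linker variant H1-10 (0.43, adjusted p = 0.0157), which was also lower in negative control than in mock (-0.50, adjusted p = 0.0364).

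CENPA and H3-3B kept their calls against negative control whichever array was left out. Against mock, H3-3B lost its call without mock array 2 (adjusted p = 0.0586), and CENPA without mimic array 1 or 3, any one negative control array or mock array 2 (adjusted p up to 0.141). H3-3A lost its call without mimic array 1 or 3 or negative control array 3 (adjusted p up to 0.0559), and H1-10 without mimic array 1 or negative control array 1 or 3 (adjusted p up to 0.0556). Its call between the controls was lost without any array but mimic arrays 2 and 3 (adjusted p up to 0.16).

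Genes of S phase and DNA replication, with which histone mRNA rises in the cell cycle, were lower with the mimic. Of 38 tested, 25 fell and 1 rose against negative control (median -0.36), and 19 fell and 0 rose against mock (median -0.49). Over all tested probes, 7.81% fell and 7.84% rose against negative control, and 2.57% fell and 1.22% rose against mock. With 1 array left out, 18 to 27 passed against negative control and 7 to 17 against mock. Largest was the fall of TK1, the thymidine kinase of dividing cells, which gave 349, 311 and 347 units in mimic samples, against 2738, 2292 and 2414 units in negative control samples and 1910 and 2006 units in mock samples (log2 change -2.71 against negative control, adjusted p = 1.57e-05). It was followed by the ribonucleotide reductase subunit RRM2 (-1.19, adjusted p = 0.000765), the uracil-DNA glycosylase UNG (-0.86, adjusted p = 0.00585), the helicase subunit MCM5 (-0.85, adjusted p = 0.00165) and the sliding clamp PCNA (-0.69, adjusted p = 0.0307). RPA1, which coats single-stranded DNA, rose (0.40, adjusted p = 0.0192). Against mock, TK1 (-2.38, adjusted p = 9.17e-05), UNG (-1.33, adjusted p = 0.00579), MCM5 (-0.66, adjusted p = 0.016) and RRM2 (-0.55, adjusted p = 0.0446) fell, while PCNA (-0.84, adjusted p = 0.0547) and RPA1 (0.01, adjusted p = 0.97) did not pass. RRM2 averaged 1891 units with the mimic, 4375 with the negative control and 2808 with mock, and it was also higher in negative control than in mock (0.64, adjusted p = 0.0297). Its call against mock held in 4 of 19 alternatives and was lost without any array but mock array 1 (adjusted p up to 0.16), and its call between the controls was lost without any one negative control array or mock array 1 (adjusted p up to 0.121). MCM5 against mock lost its call without mimic array 3 or either mock array (adjusted p up to 0.0831). PCNA lost its call without any one mimic or negative control array (adjusted p up to 0.0945), and RPA1 without negative control array 1 or 2 (adjusted p up to 0.0711). Each array read the RNA of a whole culture, so fewer cells in S phase and less transcript in each cell cannot be told apart for these genes or for the H4 genes.

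**Figure D3:**
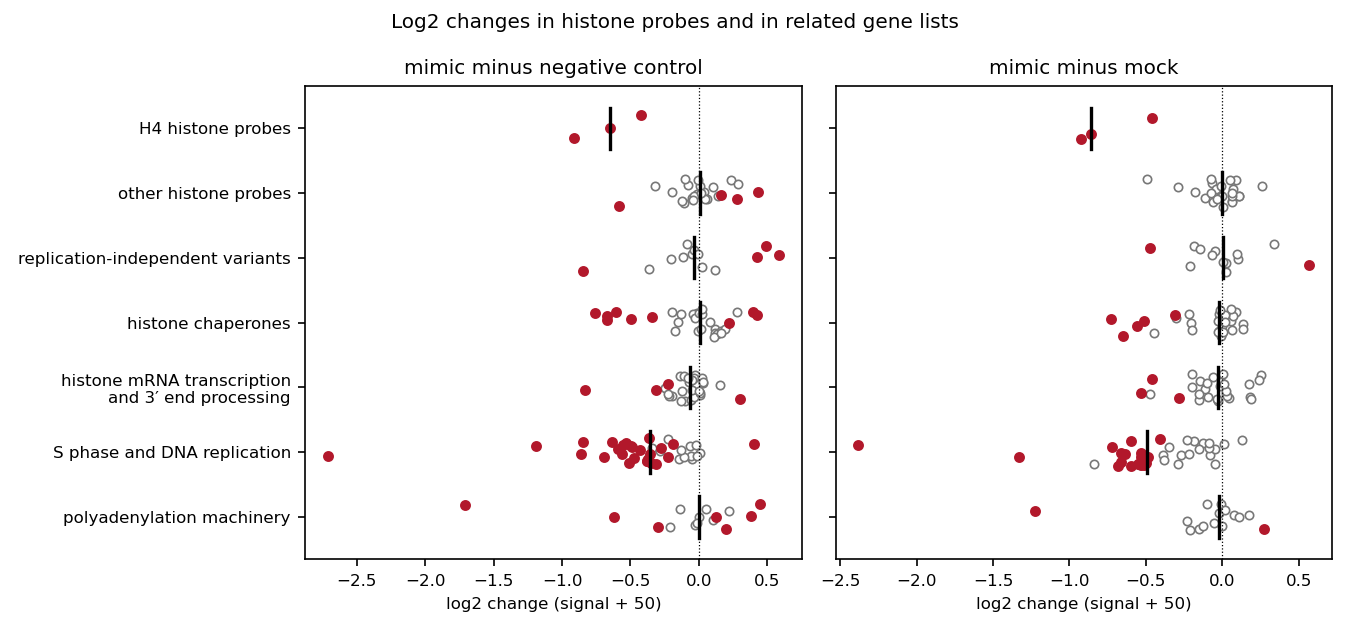
Log2 change on the scale of signal plus 50 (horizontal axes) for the tested probes or genes of each group (rows), mimic minus negative control on the left and mimic minus mock on the right. Filled points passed the limma test, open points did not, and black bars are medians. The medians are -0.65 and -0.86 for the 3 H4 probes, 0.0075 and -0.0011 for the other 25 histone probes and -0.36 and -0.49 for the S phase genes.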

How the data were processed

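The authors deposited, for each array, the median pixel intensity of every spot at 635 nm, not corrected or normalized per the file headers, with that of the ring around it and of a second wavelength, 532 nm, which held no sample. They also deposited a table of log2 values normalized by quantiles, with no stated background correction. An array had 24460 probe spots and 2680 blank spots.

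Background was set from the blank spots (normexp, offset 50), followed by quantile normalization, with limma 3.58.1 in R 4.3.3 (jsonlite 2.0.0 read the labels). The ring was not used because it correlated with its own spot at 0.919 to 0.986. Of the probes, 12 faulty spots were left out, and 12914 were tested by lmFit and eBayes on 3 group means over 8 arrays, with Benjamini-Hochberg adjustment over all of them, two-sided, at 0.05. The limma fit was tested on simulated log2 values with known changes. The background, normalization and filter steps were not simulated. Promoters and figures were handled in Python 3.11.15 with pandas 2.3.3 and matplotlib 3.10.9.

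Symbols were updated through RefSeq for 47 probes, while HIST1H2BE and HIST1H2BG, each matching 2 current genes, kept their names. No gene had 2 tested probes. Named were all called histone probes, the 6 with the highest mean, and of each list at most 5 called genes in each direction against negative control, with SLBP, NPAT, CASP8AP2 and LSM11. A list gene was its tested probe with the highest mean. The members, lists and rule were chosen with earlier results of these data known. The number of arrays limits the precision. Alternatives covered the background, offset, scaling, the deposited log2 values, the filter on dim probes, the samples fitted, an intensity trend, the t-test of the study's methods, a replicate block and leaving out each array.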

Additional observations from a re-analysis of the deposited data

How the results depend on the processing

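The direction of each of the 11 calls on named histone genes held under all 19 alternatives, but most lay near the threshold of 0.05, and H4C9 against negative control kept its call in 17. In the order mimic against negative control, mimic against mock and negative control against mock, 7, 3 and 1 histone probes and 2020, 489 and 463 probes in all had passed limma's test. Background from the pixels around each spot left 0, 0 and 0 histone probes and 0, 0 and 0 in all. Centring arrays on their medians left 1, 0 and 0, and 946, 99 and 97 in all (318 lower and 628 higher, 76 and 23, 88 and 9, against 1008 and 1012, 332 and 157, 287 and 176). The deposited log2 values gave 3, 1 and 0, and 929, 150 and 89 in all (432 lower and 497 higher, 129 and 21, 79 and 10). No filter on dim probes gave 3, 0 and 0, and 1250, 266 and 182 in all. The methods' t-test after Benjamini-Hochberg gave 1, 0 and 0, and 810, 2 and 6 in all. At its own fold and p limits it called 0 histone probes in each comparison and 35, 10 and 3 probes in all. The limits were applied to log2 values with the offset added, which understates fold changes. Against negative control, H4C9 changed by -0.91 and H4C7 by -0.42 on that scale, and by -1.02 and -1.04 in the deposited log2 values. H4C2 (-0.80) and H2AC19 (-0.77) stayed under a 2-fold change in the deposited values. Whether any would pass the p limit there was not tested. Fitting only the 2 groups compared gave 1 histone probe against mock and 0 between controls, and 185 and 181 in all. An intensity trend gave 5 and 0, and 757 and 853 in all. For the controls alone, subtracting the blank mean gave 0 histone probes and 276 in all, and an offset of 16 gave 0 and 741.

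The median over histone probes moved by more than 1 SD between arrays (0.0368) with the ring background (0.026 for mimic against mock and 0.032 for the controls) and with the deposited values (0.055, -0.059 and -0.17). The same limit was passed without mimic array 1 (0.031 against negative control and 0.031 against mock, both turned in sign). It was also passed without mimic array 3 (-0.057 against mock). With 1 array left out, 2 to 7, 0 to 3 and 0 to 1 histone probes and 1071 to 2224, 125 to 376 and 70 to 414 probes in all passed, and the medians ran from -0.029 to 0.031, -0.057 to 0.031 and -0.053 to -0.014. The lowest histone count against negative control, 2, came without negative control array 1, and that against mock, 0, without mock array 2.

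Whether the replicate numbers shared by the groups pair the samples could not be decided. Deviations of same-numbered arrays correlated at -0.106 to 0.345 (7 pairs), and those of other pairs at -0.345 to 0.127 (14 pairs). With the replicate number as a block, 5, 0 and 0 histone probes and 1845, 223 and 135 in all passed.

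With the ring background, signs turned in mimic against negative control for CDK2 (0.15), UPF1 (0.0027), CHAF1A (0.15), CENPA (0.10), SLBP (0.16), RPA1 (-0.16), CLP1 (-0.057) and PAPOLG (-0.027), in mimic against mock for H3C12 (-0.032) and ASF1B (0.0040), and between the controls for H4C9 (0.040), H4C2 (0.099), H2AC19 (-0.23), H4C7 (0.068), H3C8 (0.10) and RRM2 (-0.39), with 0 probes called. Uncalled values also turned on centring (H3-4 against mock 0.011, H2AC19 between controls -0.0014), with the block (H3C12 against mock -0.012, H4C9 between controls 0.0017) and without single arrays. With 1 array left out, the values against mock ran from -0.084 to 0.010 for H3-4, from -0.098 to 0.19 for H3C12 and from -0.25 to 0.37 for H3C8, and those between the controls from -0.095 to 0.070 for H4C9, from -0.12 to 0.051 for H4C7, from -0.12 to 0.30 for H2AC19 and from -0.35 to 0.27 for H3C8. The cause was not tested.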

Other observations

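Genes of the polyadenylation machinery, which makes the tail that histone mRNA lacks, held calls in both directions. Of 15 tested, 3 fell and 4 rose against negative control, and 1 fell and 1 rose against mock. Over all tested probes, 7.81% fell and 7.84% rose against negative control, and 2.57% fell and 1.22% rose against mock, so 1 and 1 of 15 against mock is near the share over all probes. PABPN1, the nuclear poly(A) binding protein, gave 316, 303 and 322 units in mimic samples, against 1278, 1045 and 1115 units in negative control samples and 709 and 908 units in mock samples. Every mimic array was below every control array, and the log2 change was -1.71 (SE 0.1, adjusted p = 0.000286, limma) against negative control and -1.23 (SE 0.11, adjusted p = 0.00345) against mock. Both calls of PABPN1 held whichever array was left out. The cleavage factor genes CPSF6 (-0.62, adjusted p = 0.0297) and CPSF4 (-0.30, adjusted p = 0.00787) fell against negative control. CLP1 (0.45, adjusted p = 0.0301), CSTF1 (0.38, adjusted p = 0.011), and the poly(A) polymerases PAPOLA (0.20, adjusted p = 0.0397) and PAPOLG (0.12, adjusted p = 0.0435) rose against it, and PAPOLA also against mock (0.27, adjusted p = 0.0485). CSTF1 averaged 151 units with the mimic, 104 with the negative control and 158 with mock. It was lower in negative control than in mock (-0.44, adjusted p = 0.0289) and did not pass in mimic against mock (-0.05, adjusted p = 0.787). CPSF4 and CSTF1 kept their calls against negative control whichever array was left out, and the call of CSTF1 between the controls was lost without either mock array, and likewise without mimic array 2 or negative control array 1 or 3 (adjusted p up to 0.159). CPSF6 lost its call without any array of these groups but mimic array 3 (adjusted p up to 0.0866), CLP1 without any one of them (adjusted p up to 0.0869), PAPOLA without mimic array 2 or 3 or negative control array 1 or 2 (adjusted p up to 0.122) and PAPOLG without any one of the 8 arrays (adjusted p up to 0.12). PAPOLA against mock lost its call without any one of the 8 arrays (adjusted p up to 0.225).

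A profile of the 3 H4 probes was added after their values were seen. The genes with log2 values most like it over the 8 arrays, among 10237 genes, were SLC26A2 (r = 0.992), MSH6 (r = 0.984), SLC39A4 (r = 0.982), XRCC6 (r = 0.979) and CKAP2 (r = 0.978). The 8 arrays share the 3 groups, and these correlations are a description.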
